A study of Mus musculus with 2 samples.

Results

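Capillary-type vascular endothelial nuclei are the barcodes of mouse mesenteric perivascular fat whose RNA is rich in blood vessel endothelial transcripts and poor in Vwf, the transcript of von Willebrand factor, which is abundant in larger vessels. A barcode was a member when it had at least 500 unique molecular identifiers (UMIs, each 1 captured RNA molecule) and under 5% mitochondrial UMIs. It also needed at least 4 UMIs of Flt1, Adgrl4, Cyyr1 and Ptprb together, over at least 2 of these genes and at 8 or more per 10000 UMIs. Members had at most 1 UMI of the lymphatic transcripts Prox1, Reln and Mmrn1 together, at most 2 of the macrophage transcripts F13a1 and Mrc1 together, and at most 1 of Vwf. The rule found 438 of 19480 kept barcodes. The flox control library gave 262 of 11611, or 2.26% (1.99 to 2.54%), and the library labelled Prdm16 cKO gave 176 of 7869, or 2.24% (1.92 to 2.59%). These intervals are exact Clopper-Pearson 95% intervals and overlap almost fully.

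The tissue came from mice aged 11 weeks, was snap-frozen, and was processed as purified nuclei in a droplet assay (10x Genomics) that tags the 3' end of RNA. The control mice carried the Prdm16flox allele, and the other mice carried Prdm16flox together with AdopiQCre+, as the labels spell a Cre recombinase driven by the adiponectin promoter. Both groups therefore share the floxed Prdm16, and the Cre is directed at adipocytes and not at the endothelial nuclei described here. There was 1 library per genotype, the number of mice in each is not stated in the labels, and no difference below has a replicate check. Every interval covers counting error alone.

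Capillary endothelial cells form the wall of the smallest vessels, where oxygen, hormones and lipids leave the blood. In fat they bind and take up fatty acids, which lipoprotein lipase frees from circulating lipoproteins at their surface. Their identity depends on VEGF receptors, VE-cadherin junctions, Notch and BMP signals and transcription factors of the ETS family. Prdm16 and its close relative Mecom are zinc finger regulators that are known in arterial endothelium as well as in brown and beige fat.

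The starts of 3 genes on which the results turn are given here, because Flt1 is the receptor gene that most sets these nuclei apart among the genes used by the rule, while Kdr and Cd36 carry differences between the libraries. The sequences are from RefSeq on GRCm38.p6, run 5′ to 3′ on the strand of the gene, and cover 250 bases before to 50 bases after the start that RefSeq gives. For Cd36 that start lies inside the GENCODE span of the gene given further on, which begins upstream of it. The windows are chr5:147725962-147726261 (minus strand) for Flt1, chr5:75978406-75978705 (minus strand) for Kdr and chr5:17835847-17836146 (minus strand) for Cd36. Capitals mark GGAAG, a string that holds the GGAA core of ETS sites, or CTTCC, the same string on the other strand. GGAA or TTCC outside these strings was left unmarked and not counted. No other motif was searched.
Flt1: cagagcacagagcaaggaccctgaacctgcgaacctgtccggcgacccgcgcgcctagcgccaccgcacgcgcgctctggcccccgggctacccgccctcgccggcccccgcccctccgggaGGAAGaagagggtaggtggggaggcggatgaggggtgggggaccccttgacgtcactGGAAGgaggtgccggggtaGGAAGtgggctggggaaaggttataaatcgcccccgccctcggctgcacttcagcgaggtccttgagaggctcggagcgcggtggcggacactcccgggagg
Kdr: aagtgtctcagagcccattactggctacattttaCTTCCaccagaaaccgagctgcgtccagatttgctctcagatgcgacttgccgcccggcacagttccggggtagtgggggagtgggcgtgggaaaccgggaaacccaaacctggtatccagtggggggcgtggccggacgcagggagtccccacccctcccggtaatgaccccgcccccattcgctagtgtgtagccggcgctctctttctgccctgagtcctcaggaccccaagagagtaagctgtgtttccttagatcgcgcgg
Cd36: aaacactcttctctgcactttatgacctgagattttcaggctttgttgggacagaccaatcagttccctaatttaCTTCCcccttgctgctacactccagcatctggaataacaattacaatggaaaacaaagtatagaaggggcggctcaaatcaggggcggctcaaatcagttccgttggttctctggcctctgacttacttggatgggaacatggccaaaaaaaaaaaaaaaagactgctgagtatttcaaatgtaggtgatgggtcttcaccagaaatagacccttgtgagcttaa
The Flt1 window held 3 matches, all on the printed strand, and the windows of Kdr and Cd36 held 1 match each, on the other strand. At least 1 match was present in 71.4% of the 32851 promoter windows of the table, and 3 or more matches in 16.5%. These are letter matches and not measured binding sites.

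The median depth of the members was alike in both libraries, while the upper end differed. The control members summed to 1372519 UMIs and the cKO-labelled members to 1065666 UMIs. The median nucleus held 4146.5 UMIs from 2102 genes in the former and 4132 UMIs from 2067.5 genes in the latter. The upper quartile was 6265 and 6853 UMIs. The deepest nucleus held 26236 UMIs (1.91% of all) among control and 57452 UMIs (5.39% of all) among cKO-labelled members. Of 28 barcodes present in both libraries, 0 were members in both and 1 was a member in either. The targeted gene was not lower in adipocytes of the second library: in the adipocyte reference, which is the 30% of barcodes with the highest share of 8 adipocyte transcripts, Prdm16 stood at 15.9 CPM (counts per 1000000 UMIs of the set) in control and 23.1 CPM in cKO-labelled barcodes. The floxed exon is not given in the labels and the assay reads the 3' end, so this level does not check the deletion, and the second library is called by its label throughout.

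The label was compared with 5 markers of capillary endothelium. Flt1, the VEGF receptor 1 gene, stood at 997 CPM in control members and 938 CPM in cKO-labelled members, against 8.15 and 7.26 CPM in lymphoid nuclei. Lymphoid nuclei are a set of barcodes with T and B cell transcripts, used here for comparison. They were also chosen to hold at most 1 UMI of Flt1, Adgrl4, Cyyr1 and Ptprb together, so that limit held down their Flt1 level. Whether it also lowered other endothelial transcripts in them was not tested. These lymphoid nuclei also held macrophage transcripts, at 2223 and 1991 CPM for 8 markers. Adgrl4, an endothelial adhesion receptor, stood at 914 and 697 CPM, and Cyyr1, a small membrane protein gene, at 1203 and 914 CPM. These 3 genes chose the members, so their levels are no finding. Cdh13, which encodes T-cadherin, a receptor for adiponectin, was not used by the rule. It stood at 1552 CPM in control and 1311 CPM in cKO-labelled nuclei, against 34.8 and 31.3 CPM in lymphoid nuclei. Mecom, also not used, stood at 3070 and 2672 CPM, against 115 and 84.3 CPM in lymphoid nuclei.

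Barcodes near the edges of the rule differed in markers that the rule did not use. With exactly 4 UMIs of the vascular genes, just inside, there were 18 control and 13 cKO-labelled nuclei, in which Cdh13 stood at 1419 and 1476 CPM. With 3 UMIs, just outside, there were 11 and 14 barcodes with Cdh13 at 438 and 287 CPM. Prdm16 stood at 88.1 and 102 CPM in members with 0 Vwf UMIs, at 471 and 399 CPM in those with 1, and at 459 and 387 CPM in barcodes just outside with 2. The nuclei with 1 Vwf UMI, 37 and 25 in number, were thus nearer in Prdm16 to the barcodes just outside than to the members with 0.

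**Figure D1:**
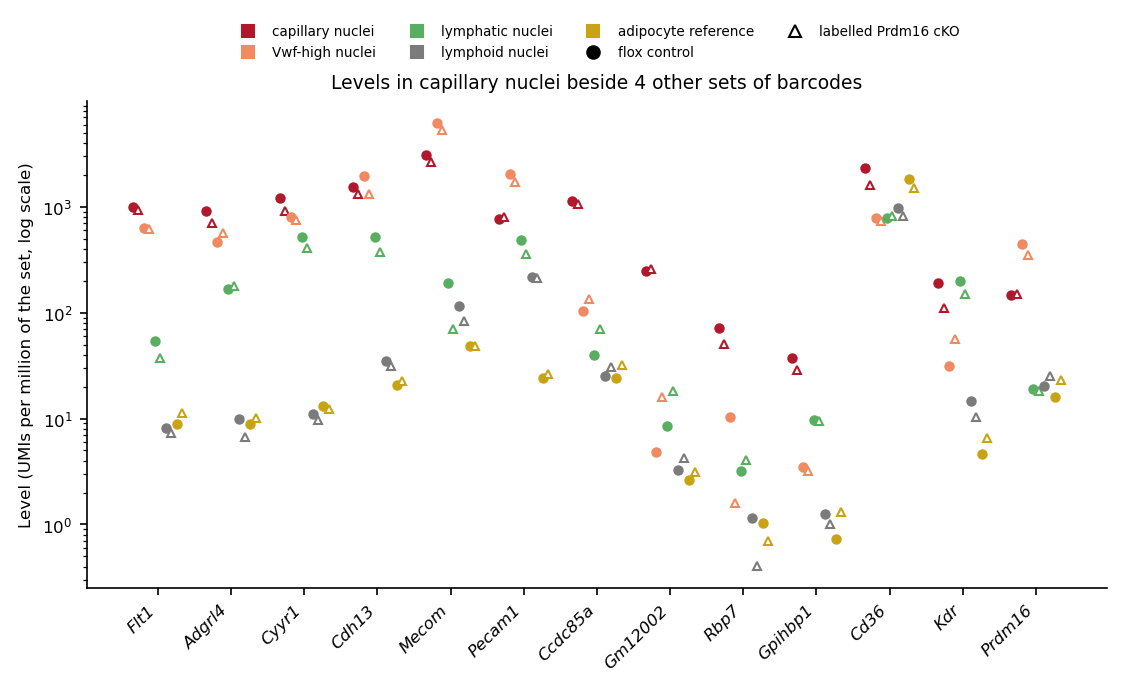
Levels of 13 genes, in CPM of the summed set on a log scale, in capillary nuclei and 4 other sets of barcodes; filled circles are the flox control and open triangles the library labelled Prdm16 cKO, 1 summed value each. Rbp7, Gpihbp1, Gm12002 and Ccdc85a stand highest in the capillary nuclei, while Mecom, Pecam1 and Prdm16 are higher in the Vwf-high nuclei and Cd36 in the adipocyte reference, at 1823 and 1510 CPM, comes close to the capillary level.

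Beside all other kept barcodes, the genes with the largest ratio in the poorer of the 2 libraries were, in order, Gm12002, Rbp7, Flt1, Mcf2l and Adgrl4. Rbp7 encodes a retinol-binding protein known in capillaries of fat and stood at 71.4 CPM in control and 50.7 CPM in cKO-labelled nuclei, against 1.16 and 0.404 CPM in lymphoid nuclei. Gm12002, a predicted transcript, stood at 248 and 257 CPM against 3.28 and 4.24 CPM. Further down came Sox17, a transcription factor of arterial and capillary endothelium, at 56.8 and 53.5 CPM, Cd300lg, a surface glycoprotein of capillaries, at 111 and 90.1 CPM, and Robo4, an endothelial guidance receptor, at 64.1 and 77.9 CPM. These ratios follow from choosing nuclei by endothelial RNA and describe them without a test.

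The nearest relatives are the Vwf-high vascular nuclei, which meet the same rule except that they hold 2 or more Vwf UMIs (156 and 71 nuclei), and the lymphatic endothelial nuclei (350 and 181). Capillary nuclei made up 62.7% (57.8 to 67.3%) of the vascular nuclei in the control and 71.3% (65.2 to 76.8%) of those in the cKO-labelled one. Depth differs between these sets, with median UMIs of 7835.5 and 6827 in the Vwf-high nuclei, and a limit on Vwf counts is reached less easily by shallow nuclei. The fat capillary genes Gpihbp1, Car4 and Timp4 separated the sets. Gpihbp1, which encodes the protein that holds lipoprotein lipase on capillaries, stood at 37.2 and 29.1 CPM in capillary nuclei and at 3.48 and 3.21 CPM in Vwf-high nuclei. Car4, a membrane carbonic anhydrase, stood at 52.5 CPM in both libraries, against 2.09 and 3.21 CPM. Slc1a1, a glutamate transporter gene, stood at 75.04 and 82.6 CPM, against 2.09 CPM in control and 0 UMIs in cKO-labelled Vwf-high nuclei. In the other direction, Adgrg6, an adhesion receptor, stood at 36.4 and 34.7 CPM in capillary and 414 and 425 CPM in Vwf-high nuclei, and Pgm5 at 75.04 and 43.2 CPM against 422 and 345 CPM. Beside lymphatic nuclei the genes highest in capillary nuclei included Lrrc3b, Lnx1, Lama3, Sox17 and Notch4. Notch4, an endothelial Notch receptor, stood at 60.5 and 32.8 CPM against 3.61 and 1.37 CPM.

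Transcripts of other cell types were present in the members. The summed level of 8 adipocyte transcripts in capillary nuclei was 33.2% of that in the adipocyte reference for control and 41.3% for cKO-labelled nuclei. The same measure was 35.3% and 40.1% in lymphoid nuclei, 24.9% and 27.1% in Vwf-high nuclei and 22.2% and 29.5% in lymphatic nuclei. Per nucleus the medians were alike, at 67.0 and 66.8 adipocyte marker UMIs per 10000, while 11 control and 14 cKO-labelled members also fell in the adipocyte reference. T cell markers, 8 genes, summed to 369 CPM in control and 154 CPM in cKO-labelled members, with Cd3e at 0 in the latter. Of 8 pancreatic acinar markers, the sum was 75.8 and 316 CPM, with Amy2a5 at 0 in the control, beside 158 and 698 CPM in lymphoid nuclei. Of 7 smooth muscle markers, the sum was 64.8 and 15.01 CPM, with Cnn1 at 0 in both and Actg2 at 0 in the cKO-labelled library. The 7 pericyte markers summed to 32.1 and 60.1 CPM with Kcnj8 and Higd1b at 0 in both. Macrophage markers summed to 209 and 150 CPM, fibroblast to 904 and 996 CPM, mesothelial to 268 and 229 CPM, B cell to 168 and 241 CPM and dendritic to 283 and 220 CPM. The rule limits F13a1 and Mrc1 in each nucleus, so it holds down the macrophage sum. It does the same to the lymphatic sum through Prox1, Reln and Mmrn1. Schwann cell markers summed to 199 and 295 CPM, lymphatic to 96.2 and 58.2 CPM, intestinal epithelial to 32.8 and 21.6 CPM and granulocyte to 13.1 and 0.938 CPM. The part of these transcripts in the differences below was not tested, except where values after their removal are given.

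Between the libraries, 6636 genes had at least 50 UMIs over both sets of members and were compared. Of these, 456 (6.87%) were at least 1.5 times higher and 387 (5.83%) at least 1.5 times lower in the cKO-labelled members, 12.7% in all. The interval lay wholly past 1.5-fold for 66 higher and 31 lower genes. The genes that belong to endothelium, 576 whose level was at least 2 times that of all other barcodes in both libraries, were more often lower: 14 (2.43%) were higher and 67 (11.6%) lower, with a median log2 ratio of -0.18. The other measured genes had a median of 0.02, with 7.29% higher and 5.28% lower. The shares over all measured genes and over endothelium-enriched genes are the background for every count of list members below.

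The excess of lower endothelial genes was not present under several other ways of processing. With the adipocyte profile of each library subtracted, at the fraction set by the adipocyte transcripts, 32 endothelial genes stood higher and 31 lower, and their median was -0.02. Without the 99 nuclei of sub-clusters 2 and 3, described below, the counts were 30 and 30 and the median -0.03. As a mean of the CPM of single nuclei, which weighs shallow and deep nuclei the same, they were 28 and 36 and the median -0.0021. With the lymphoid profile subtracted instead, they were 28 and 126. Then 35.8% of all 2125 measured genes were lower and 19.8% higher, against 23.7% and 5.26% of the endothelial ones. Both shares were thus smaller among endothelial genes, and their median of -0.24 stood beside -0.28 over all measured genes. Under some other settings the excess stayed, for example at 13 higher and 67 lower with Vwf at 0. It was 12 and 84 with the highest doublet scores removed. The endothelial median lay below 0 under every setting, from -0.24 to -0.0021. The size of the difference, and whether lower endothelial genes outnumber higher ones, therefore rest on the setting.

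**Figure D2:**
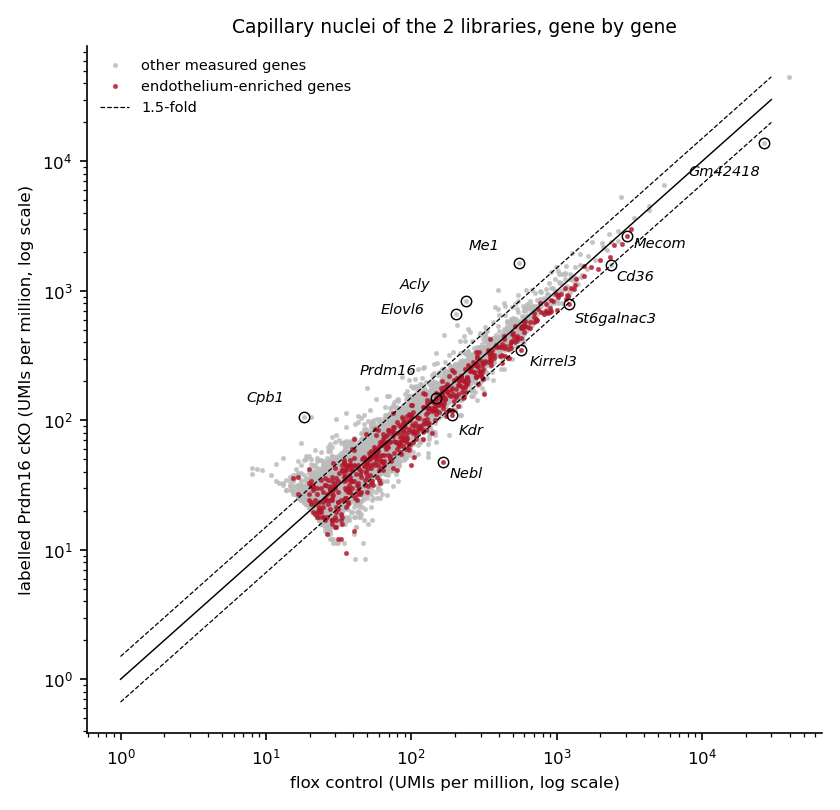
Each point is 1 of 6636 genes, with its level in control capillary nuclei on the x axis and in cKO-labelled capillary nuclei on the y axis, both in CPM on log scales; dashed lines mark 1.5-fold. Red points, the 576 endothelium-enriched genes, lie more often below than above the band (67 against 14), and Acly, Elovl6, Me1 and Cpb1 lie far above it.

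The main VEGF receptor was lower in the cKO-labelled nuclei. Kdr encodes VEGF receptor 2, the main signalling receptor for VEGF-A in endothelium, and lies on chromosome 5 from 75932827 to 75978458 (GRCm38, minus strand). It had 263 UMIs and 192 CPM in control members and 118 UMIs and 111 CPM in cKO-labelled members, a log2 ratio of -0.79 (-1.12 to -0.47). The sign held in 16 of 16 alternative ways of processing, from -0.84 to -0.28, and the ratio was -0.63 with the adipocyte profile subtracted and -0.64 in sub-cluster 0 alone. In nuclei thinned to 1000 UMIs each, Kdr was detected in 15.3% (11.2 to 20.3%) of 261 control and 10.9% (6.70 to 16.5%) of 174 cKO-labelled nuclei, against 1.99% of control lymphoid nuclei, and these intervals overlap. Without thinning the shares were 41.2% and 35.2%. Flt4, VEGF receptor 3, stood at 42.3 and 28.2 CPM with a ratio of -0.59 (-1.27 to 0.07), an interval that takes in 0. The co-receptor gene Nrp1 stood at 1022 and 811 CPM, a ratio of -0.33 (-0.46 to -0.21), and Nrp2 at 221 and 206 CPM. Of the 14 measured genes of the VEGF list, 1 was at least 1.5 times higher, namely Vegfa, the ligand, at 104 and 180 CPM, and 2 were lower, Kdr and Flt4. Without sub-clusters 2 and 3 the Vegfa ratio of 0.79 was 0.0018, and that of Flt4 was -0.25.

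Of 20 measured genes of endothelial identity, all of them endothelium-enriched, 0 were at least 1.5 times higher and 4 were lower, namely Kdr, Cdh5, Dysf and Plvap. The list's median was -0.11 beside -0.18 over all endothelium-enriched genes. Cdh5, which encodes VE-cadherin, the adhesion molecule of endothelial junctions, stood at 211 CPM in control and 129 CPM in cKO-labelled nuclei, a ratio of -0.72 (-1.02 to -0.42), from -1.08 to -0.35 over the alternatives. Dysf, a membrane repair gene, stood at 424 and 276 CPM, a ratio of -0.62 (-0.83 to -0.42). Plvap, the gene of the fenestral diaphragm, had 61 and 29 UMIs and its ratio of -0.71 turned to 0.17 as a mean over single nuclei. Pecam1, in contrast, stood at 767 and 812 CPM, a ratio of 0.08 (-0.05 to 0.21), and Egfl7 at 245 and 266.5 CPM, so the identity genes did not differ as a block. With the adipocyte profile subtracted the list's median was 0.07.

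Among 21 measured endothelial transcription factors, 1 was at least 1.5 times higher and 0 were lower, while 11 had intervals wholly below 0. Their median of -0.18 equalled that of the endothelium-enriched genes. The ETS factors Fli1 (1001 and 709 CPM) and Ets1 (442 and 312 CPM) had ratios of -0.50 (-0.63 to -0.37) and -0.50 (-0.70 to -0.31). With the adipocyte profile subtracted these were -0.33 and -0.34. Lymphoid nuclei carried 730 and 389 CPM of them in the control, and how much of that was the lymphoid nuclei's own RNA was not tested. In sub-cluster 0 alone the ratios were -0.04 for Fli1 and -0.11 for Ets1. Erg, an ETS factor more restricted to endothelium, stood at 242 and 211 CPM with a ratio of -0.20 (-0.45 to 0.05). Klf4, a flow-responsive factor, was the gene that was higher, at 29.1 and 46.9 CPM (40 and 50 UMIs), a ratio of 0.69 (0.06 to 1.32), which was 0.23 with the Vwf limit dropped. Its partner Klf2 stood at 48.8 CPM in both libraries.

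Prdm16 stood at the same level in the capillary nuclei of both libraries. It lies on chromosome 4 from 154316125 to 154636873 (GRCm38, minus strand). Members held 203 control and 159 cKO-labelled UMIs, at 148 and 149 CPM, a ratio of 0.01 (-0.30 to 0.32), whose ends lie short of 1.5-fold, and from -0.50 to 0.21 over the alternatives. The level was above that of lymphoid nuclei, at 20.2 and 25.02 CPM, and below that of Vwf-high nuclei, at 447 and 350 CPM, where the ratio was -0.35 (-0.58 to -0.13). When the Vwf limit was dropped, the ratio over all vascular nuclei was -0.43, and the share of Vwf-high nuclei among them differs between the libraries as given above. Mecom, on chromosome 3 from 29951296 to 30548008, had a ratio of -0.20 (-0.27 to -0.13), which was -0.02 with the adipocyte profile subtracted. The 7 measured genes of the Prdm16 and Mecom list, which also holds partners such as Ehmt1 and Ctbp1, had 0 higher and 0 lower.

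Lipid handling genes did not share 1 direction, and Cd36 was among those with lower values. Cd36, a fatty acid transporter on chromosome 5 from 17781690 to 17888801 (GRCm38, minus strand), had 3230 UMIs and 2353 CPM in control members and 1699 UMIs and 1594 CPM in cKO-labelled members, a ratio of -0.56 (-0.65 to -0.48). That is just short of 1.5-fold, and the sign held in 16 of 16 alternatives, from -0.95 to -0.28. Cd36 is also an adipocyte transcript, so lymphoid nuclei stood at 975 and 826 CPM, and with the adipocyte profile subtracted the ratio was -0.66. Fabp4, a fatty acid carrier of both cell types, stood at 1226 and 988 CPM, a ratio of -0.31 (-0.42 to -0.20), against 788 and 724 CPM in lymphoid nuclei. Among genes at least 2 times above the lymphoid level, values were mixed. Aqp7, a glycerol channel, stood at 98.4 and 65.7 CPM (-0.58, interval -1.02 to -0.16). Meox2, a homeobox regulator of fatty acid transport in capillaries, stood at 107 and 75.1 CPM (-0.51, interval -0.92 to -0.11). Gpihbp1, with 51 and 31 UMIs, had a ratio of -0.35 with an interval from -1.05 to 0.32, and Car4 and Timp4 had ratios of 0.00 and 0.01.

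Of the 22 measured members of this lipid handling list, 4 were at least 1.5 times higher, 0 were lower, and the median was -0.09. They included Pparg, Dgat2 and Acsl3. Pparg, the regulator of fat cell genes, stood at 1271 and 1971 CPM in members and at 1056 and 1413 CPM in lymphoid nuclei. Dgat2, which makes triglyceride, stood at 439 and 758 CPM and at 469 and 688 CPM in lymphoid nuclei. The levels of Pparg, Dgat2 and Acsl3 in members lay within 1.5-fold of those in lymphoid nuclei. Lpl, lipoprotein lipase, stood at 766 and 1001 CPM, against 707 and 863 CPM in lymphoid nuclei.

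Fatty acid synthesis genes stood higher in the cKO-labelled members, at levels close to those of lymphoid nuclei. Of 13 measured genes, 11 were at least 1.5 times higher and 0 lower, with a median of 1.33 beside 0.01 over all measured genes. The median kept its sign in 16 of 16 alternatives but moved widely. It was 2.19 with the adipocyte profile subtracted, 0.79 in sub-cluster 0 and 0.80 as a mean over single nuclei. With the lymphoid profile subtracted it was 0.49, over only part of the list. Acly, Elovl6 and Me1 had no value left there, and of the genes that did, Acaca stood at 1.73 and Elovl5 at -0.75. Acly, which makes acetyl-CoA from citrate, stood at 237 and 828 CPM in members and 310 and 698 CPM in lymphoid nuclei. Elovl6, a fatty acid elongase, stood at 204 and 658 CPM against 238 and 553 CPM, and Me1, malic enzyme, at 552 and 1650 CPM against 647 and 1268 CPM. In the adipocyte reference these genes stood above the members, with Acly at 593 and 1190 CPM and Me1 at 1557 and 2412 CPM. All 13 genes were within 1.5-fold of lymphoid nuclei in both libraries, where the list's median was 0.94.

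**Figure D3:**
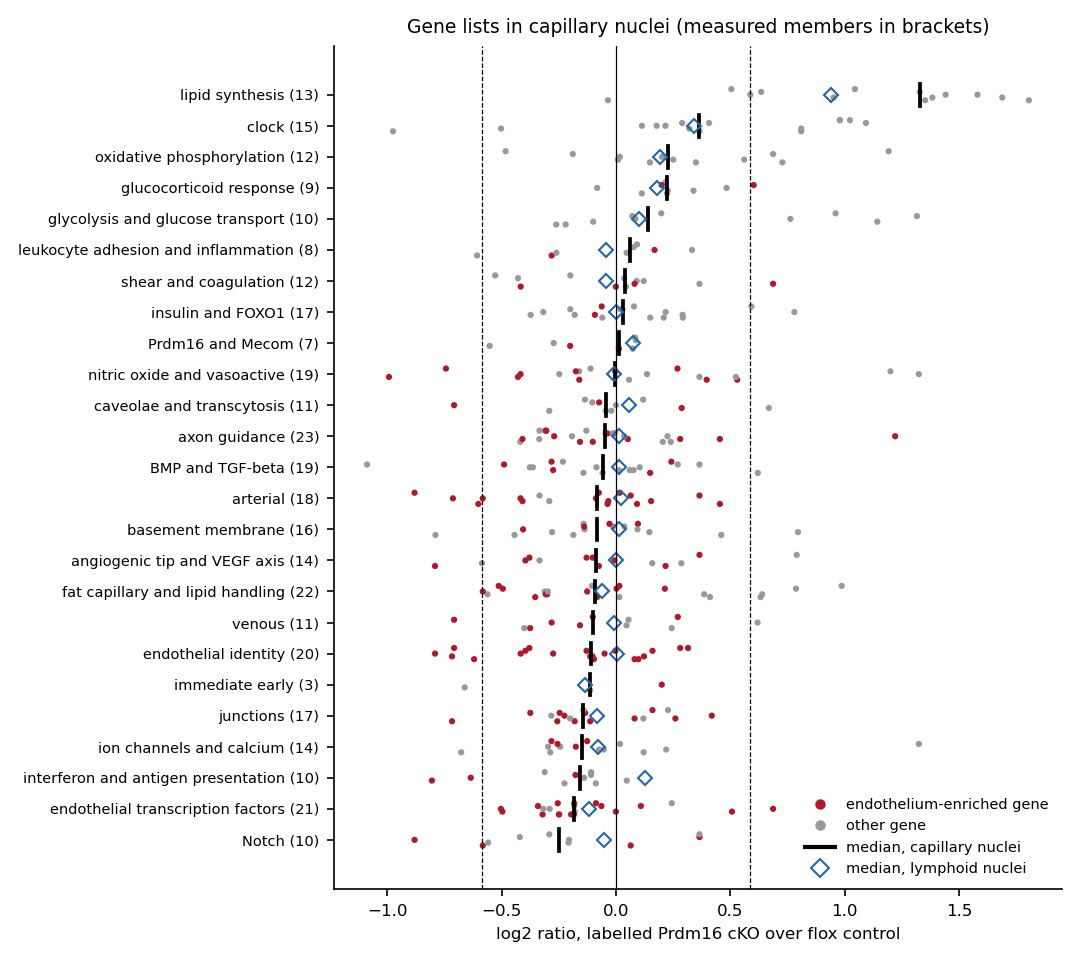
Log2 ratios of the cKO-labelled over the control capillary nuclei for the measured genes of 25 lists; red points are endothelium-enriched genes, bars are list medians, open diamonds are the medians of the same genes in lymphoid nuclei, and dashed lines mark 1.5-fold. Lipid synthesis stands apart at 1.33, with lymphoid nuclei at 0.94, and the identity, transcription factor, arterial, junction and Notch medians lie between -0.25 and -0.08.

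Junction, matrix and Notch genes mostly had small negative ratios, with 1 lower gene in each list. Of 17 measured junction genes, Cdh5 was lower and 0 were higher, and the median was -0.14. Magi1, a junction scaffold, stood at 1911 and 1474 CPM with a ratio of -0.37 (-0.47 to -0.28), whereas Jam2, an adhesion molecule, stood at 197 and 236 CPM with a ratio of 0.26 (0.01 to 0.51). Of 16 basement membrane genes, Col4a1 was lower and Lamb2 higher, the latter from 23 and 31 UMIs with an interval that takes in 0. Col4a1, a chain of type IV collagen, stood at 431 CPM in control and 250 CPM in cKO-labelled members, a ratio of -0.79 (-1.003 to -0.58), and lymphoid nuclei stood at 153 and 164 CPM. The ratio was from -1.84 to -0.57 over the alternatives and -0.67 in sub-cluster 0. Its partner chain Col4a2 stood at 342 and 282 CPM, a ratio of -0.28 (-0.49 to -0.07). Thinned nuclei held a Col4a1 UMI in 30.7% (25.1 to 36.6%) of control and 19.5% (13.9 to 26.2%) of cKO-labelled nuclei, against 13.2% of control lymphoid nuclei, with 65.3% and 61.4% before thinning.

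Notch4 was the lower gene of 10 measured Notch genes, at 60.5 and 32.8 CPM (83 and 35 UMIs), a ratio of -0.88 (-1.49 to -0.29). Its ligand genes differed from one another: Jag1 stood at 136 and 111 CPM, Jag2 at 39.3 and 26.3 CPM and Dll4 at 27.0 and 34.7 CPM, each with an interval that takes in 0. The list's median was -0.25. In 18 measured arterial genes, 3 were lower (Notch4, Fbln5 and Gja5) and 0 higher. Of these 18 genes, 16 are endothelium-enriched, a class in which 11.6% were lower and 2.43% higher. Fbln5, an elastic fibre protein, stood at 96.9 and 59.1 CPM, a ratio of -0.71 (-1.17 to -0.27), and Gja5, connexin 40, at 31.3 and 20.6 CPM with an interval that takes in 0. Of 11 venous genes, Plvap was lower and Ctsh higher. In the BMP and TGF-beta list of 19, Tgfb2 was lower, at 45.9 and 21.6 CPM (63 and 23 UMIs), a ratio of -1.09 (-1.85 to -0.38) that was -0.07 with the Vwf limit dropped, and Id3 was higher with an interval that takes in 0. Eng, the endothelial co-receptor endoglin, stood at 293 and 242 CPM, a ratio of -0.27 (-0.51 to -0.05).

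Vasoactive genes included members higher and lower in the cKO-labelled nuclei, 2 each of 19, beside 6.87% higher and 5.83% lower over all measured genes. Nos3, endothelial nitric oxide synthase, stood at 99.1 and 130 CPM, a ratio of 0.40 (0.05 to 0.75). Gucy1a1, a subunit of the nitric oxide receptor, stood at 27.0 and 61.9 CPM (37 and 66 UMIs), a ratio of 1.20 (0.60 to 1.82), and Kcnn3, a calcium-activated potassium channel, at 13.1 and 32.8 CPM (18 and 35 UMIs), a ratio of 1.32 (0.47 to 2.23). Both are far higher in Vwf-high nuclei, where Gucy1a1 stood at 221 CPM in the control, and with the Vwf limit dropped their ratios were -0.16 and 0.22. Pde2a, which breaks down cyclic nucleotides, stood at 121 and 72.3 CPM, a ratio of -0.74 (-1.15 to -0.34), and held its sign in 15 of 15 alternatives. Bdkrb2, a bradykinin receptor, had 41 and 16 UMIs and a ratio of -0.99 (-1.93 to -0.13). In the interferon list of 10, Gbp2 and Gbp4 were lower and 0 were higher, with Gbp4, a guanylate-binding protein, at 94.7 and 60.99 CPM. Gbp5, of the same family but not counted in that list, had a ratio of 0.83, which was 0.23 with the Vwf limit dropped.

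The other lists are read against 6.87% higher and 5.83% lower over all measured genes. Shear and coagulation genes had 1 of 12 higher (Klf4) and 0 lower, caveolae and transcytosis 1 of 11 higher (Cav2) and 1 lower (Plvap), and axon guidance 1 of 23 higher (Sema3f) and 0 lower. Leukocyte adhesion genes had 0 of 8 higher and 1 lower, Irf1, an interferon-responsive factor, at 75.8 and 49.7 CPM. Insulin and FOXO1 genes had 2 of 17 higher and ion channels 1 of 14 higher and 1 lower. Glycolysis genes had 4 of 10 higher, among them Hk2, hexokinase 2, at 86.7 and 216 CPM, and oxidative phosphorylation 3 of 12, with 9 and 11 of these genes within 1.5-fold of the lymphoid level in both libraries. Glucocorticoid response genes had 1 of 9 higher and 0 lower with a median of 0.22, beside 0.18 in lymphoid nuclei.

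Clock genes stood mostly higher, with 13 ratios above 0 and 2 below. The 2 below 0 were Arntl and Clock (-0.50), both with intervals wholly below 0. Of 15 measured genes, 6 were at least 1.5 times higher and 1 lower, with a median of 0.37, and the sign of the median held in 16 of 16 alternatives. Arntl, the activator BMAL1, stood at 59.0 and 30.03 CPM, a ratio of -0.97 (-1.61 to -0.37), which was -0.41 without sub-clusters 2 and 3. Its targets Dbp (24.8 and 48.8 CPM), Tef (181 and 318 CPM) and Per3 (106 and 208 CPM) had ratios of 0.98, 0.81 and 0.98. In lymphoid nuclei Arntl stood at 93.4 and 69.6 CPM and Dbp at 23.5 and 50.4 CPM, the same directions. The list median there was 0.34, and 14 of the 15 genes lay within 1.5-fold of the capillary level in both libraries. The labels do not give the time of tissue collection.

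By the fixed rule for single genes, the endothelium-enriched genes with the firmest lower values were led by Nebl, Atoh8 and Chn2. Nebl, an actin-binding gene, had 228 UMIs and 166 CPM in control and 51 UMIs and 47.9 CPM in cKO-labelled nuclei, a ratio of -1.80 (-2.26 to -1.35). In Vwf-high nuclei it stood at 147 and 148 CPM, and a UMI of it was found in 14.9% of control capillary nuclei, with 172 of the 228 control UMIs in sub-cluster 4. Atoh8, a helix-loop-helix factor, had 49 and 10 UMIs, a ratio of -1.93 (-3.07 to -0.93). Chn2, a regulator of Rac, stood at 314 and 159 CPM, but at 255 and 153 CPM in lymphoid nuclei. Dkk2, a Wnt antagonist, had 55 and 15 UMIs and a ratio of -1.51 (-2.44 to -0.67), which was -0.21 as a mean over single nuclei. A Dkk2 UMI was found in 6 control nuclei (2.29%) and 9 cKO-labelled nuclei (5.11%), the opposite direction, with 43 of the 55 control UMIs in sub-cluster 4, so its lower sum rests on few nuclei.

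Tnfsf10, which encodes the death ligand TRAIL, stood at 99.1 and 45.04 CPM, a ratio of -1.14 (-1.64 to -0.65), against 15.02 and 10.9 CPM in lymphoid nuclei. Kirrel3, an adhesion molecule, stood at 571 and 349 CPM, a ratio of -0.71 (-0.89 to -0.53), and at -0.22 without sub-clusters 2 and 3. St6galnac3, a sialyltransferase, stood at 1215 and 788 CPM, a ratio of -0.62 (-0.75 to -0.50), and Galnt18, which starts O-linked sugar chains, at 472 and 305 CPM, a ratio of -0.63 (-0.83 to -0.44). The list was completed by Zfp827, Cyp4b1, Rsad2 and Kdr. All 12 genes kept their sign under each alternative that measured them, 11 to 16 per gene. Several of them are also lower in Vwf-high nuclei, for example St6galnac3 at 1299 and 965 CPM.

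The higher side was weaker. Sema3f, a secreted guidance molecule, had 21 and 38 UMIs, a ratio of 1.22 (0.42 to 2.06) that was 0.15 with the Vwf limit dropped, and Atp2b2, a calcium pump, 27 and 45 UMIs, a ratio of 1.102 (0.38 to 1.85). Ptchd4, a patched-related membrane protein that is 8 or more times higher in capillary than in Vwf-high nuclei, stood at 48.8 and 78.8 CPM, a ratio of 0.69 (0.21 to 1.18), which was 0.11 as a mean over single nuclei. Bcl2l1, the survival factor Bcl-xL, stood at 189 and 246 CPM, a ratio of 0.38 (0.12 to 0.63), and Timp3, a matrix protease inhibitor, at 278 and 339 CPM, a ratio of 0.29 (0.08 to 0.50). The remaining genes were Tbc1d30, Gbp5, St8sia6, Crispld1, Cemip2, Epb41 and B630019A10Rik. Of these 12 genes, 7 kept their sign throughout, while Atp2b2, Tbc1d30 and Timp3 turned negative when Vwf-high nuclei were added, and Cemip2 and B630019A10Rik turned negative in sub-cluster 0 alone.

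**Figure D4:**
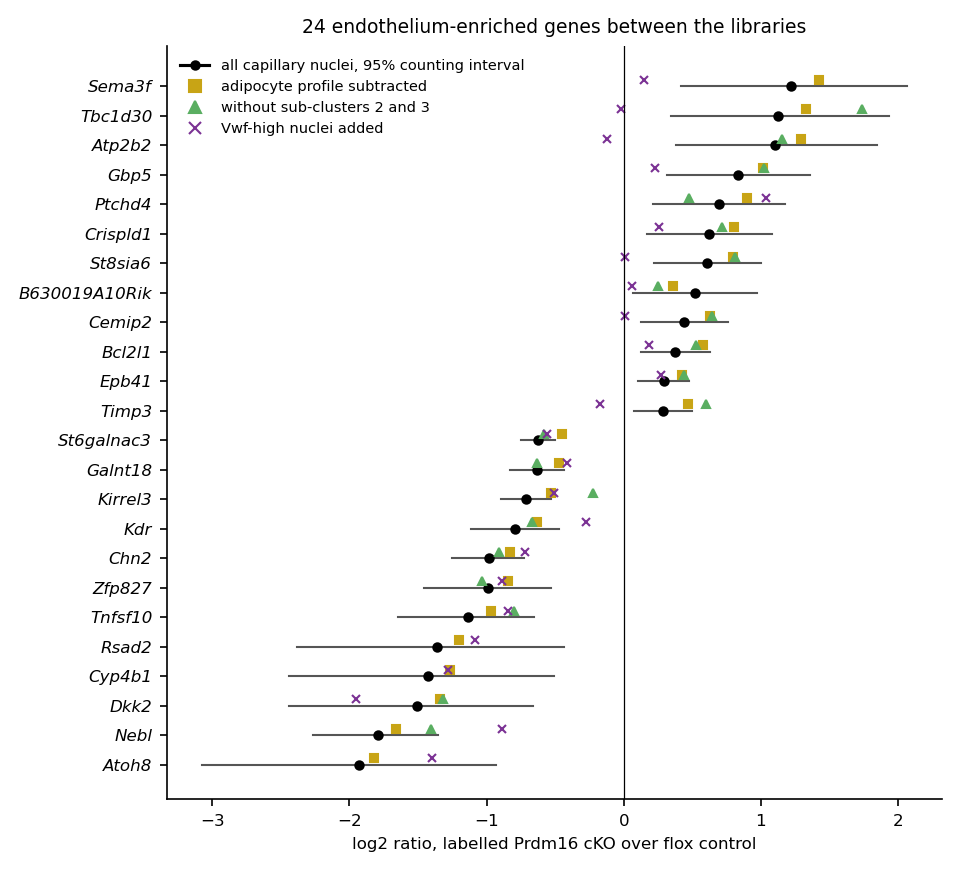
Log2 ratios of the cKO-labelled over the control capillary nuclei for the 24 endothelium-enriched genes chosen by rule, with 95% counting intervals (lines) and 3 alternatives (coloured symbols, shown where the gene was measured). The 12 lower genes stay below 0 in all symbols, while symbols for Atp2b2, Tbc1d30 and Timp3 cross 0 when Vwf-high nuclei are added.

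Among genes that are not endothelium-enriched, those with the firmest differences included pancreatic, T cell and lipid synthesis transcripts. Cpb1 and Pnlip, pancreatic enzymes, stood at 18.2 and 106 CPM and at 8.01 and 43.2 CPM, below the 41.8 and 243 CPM and the 18.9 and 90.8 CPM of lymphoid nuclei. On the lower side, Skap1 and Stat4 are T cell genes, with Skap1 at 183 and 76.9 CPM in members and 962 and 943 CPM in lymphoid nuclei. Gm42418, a gene model over ribosomal RNA, stood at 26647 and 13929 CPM and was lower in every set shown, with lymphoid nuclei at 28604 and 16685 CPM.

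The capillary nuclei were not uniform. Clustering within the members (Leiden algorithm, resolution 0.6) gave 7 sub-clusters, which are called by number because their leading genes were found on the same nuclei. Sub-cluster 0, with 86 control and 57 cKO-labelled nuclei, had Fhod3, Robo2, Coro6 and Ccdc85a among its leading genes and the highest sum of fat capillary genes, 4958 CPM. Sub-cluster 1, with 80 and 44 nuclei, was shallow, at a median of 2339.5 UMIs, and had Ctnnd2, Wt1os and the fibroblast marker Dpp4 among its leading genes. Sub-cluster 2, with 26 and 27 nuclei, was deep, at a median of 12489 UMIs, and held 24 of the 25 members that fell in the adipocyte reference. Sub-cluster 3, with 31 and 15 nuclei, was led by Itgbl1 and held Lef1, Themis and Bcl11b of the T cell markers among its leading genes. The summed adipocyte markers stood at 18035 CPM in sub-cluster 2 and 6492 CPM in sub-cluster 3, against 5685 CPM in sub-cluster 0.

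The remaining sub-clusters had the highest sums of the arterial or venous lists. Sub-cluster 4, with 21 and 10 nuclei, had Nebl, Dkk2 and Vegfc among its leading genes and the highest arterial sum, 6178 CPM. Sub-cluster 5, with 11 and 13 nuclei, was led by Ptchd1, Mgp and Vcam1 with an arterial sum of 4045 CPM and fat capillary genes at 456 CPM. Sub-cluster 6, with 7 and 10 nuclei, was led by Pgm5 and Lepr and had the highest venous sum, 2844 CPM. Their shares of the members were 8.02% and 5.68%, 4.20% and 7.39%, and 2.67% and 5.68% in control and cKO-labelled nuclei, with overlapping intervals in each. The rule thus admits nuclei with arterial or venous transcripts and a low Vwf count, and the fat capillary sum was highest in sub-cluster 0.

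Most Prdm16 UMIs of the members lay in the sub-clusters with the highest arterial sums. This is a description, since the sub-clusters were formed on the same counts. Sub-clusters 4 and 5 made up 12.2% of control and 13.1% of cKO-labelled members and held 84.2% and 63.5% of their Prdm16 UMIs. Prdm16 stood at 892 and 625 CPM in sub-cluster 4 and at 1041 and 830 CPM in sub-cluster 5, against 52.1 and 26.9 CPM in sub-cluster 0, where there were 21 and 6 UMIs. In sub-clusters 1, 2 and 3 it was instead higher in the cKO-labelled nuclei, at 19.0 and 79.3 CPM, 13.004 and 51.3 CPM, and 12.5 and 166 CPM, from 3 to 22 UMIs each and with ratio intervals above 0. In sub-clusters 0, 4 and 5 the ratio intervals took in 0 (-2.55 to 0.40, -1.14 to 0.08 and -0.82 to 0.17). The level of 148 and 149 CPM over all members thus sums higher values in sub-clusters 1, 2 and 3 with values whose direction the counts do not settle. The exact Poisson interval of sub-cluster 0 in the control, 32.2 to 79.6 CPM, lay above the 20.2 CPM of lymphoid nuclei. In the cKO-labelled library it was 9.86 to 58.5 CPM and took in their 25.02 CPM. Mecom, in contrast, was present in every sub-cluster, from 867 CPM in cKO-labelled sub-cluster 2 to 7929 CPM in cKO-labelled sub-cluster 4.

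Cd36 and Kdr stood highest in sub-cluster 0. Cd36 stood at 3678 CPM in control and 2598 CPM in cKO-labelled nuclei of sub-cluster 0, and at 448 and 273 CPM in sub-cluster 5. Kdr stood at 392 and 251 CPM in sub-cluster 0 and at 72.1 and 20.2 CPM in sub-cluster 4. It stood at 94.3 and 58.3 CPM in sub-cluster 2 and 137 and 114 CPM in sub-cluster 3. In sub-cluster 1 it was instead at 148 and 176 CPM, from 31 and 20 UMIs, a ratio of 0.26 (-0.63 to 1.11). Cd36 and Kdr, and Col4a1 at 608 and 381 CPM, were thus lower in cKO-labelled nuclei within sub-cluster 0 too. Cdh5 stood at 347 and 273 CPM there. Kirrel3, by contrast, was highest in sub-cluster 6, at 2715 and 1787 CPM, and differed by only -0.23 in sub-cluster 0.

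**Figure D5:**
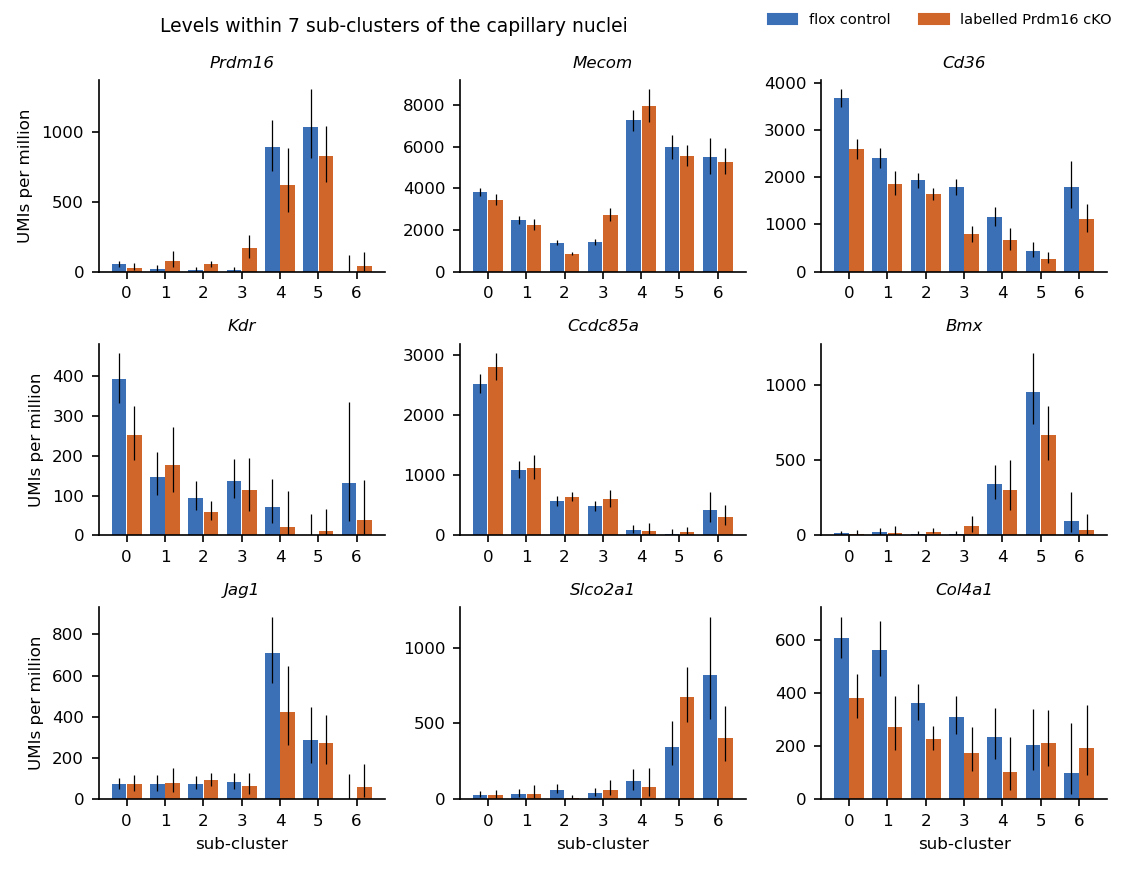
Levels of 9 genes in CPM (y axes, from 0) within the 7 sub-clusters of capillary nuclei (x axes), for flox control (blue) and the library labelled Prdm16 cKO (orange), with exact 95% Poisson intervals. Prdm16, Bmx and Jag1 are concentrated in sub-clusters 4 and 5, while Cd36, Kdr and Ccdc85a are highest in sub-cluster 0.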

How the data were processed

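The authors deposited whole-number UMI counts per gene and barcode for 2 libraries, for which the submitters' processing notes name Cell Ranger 6.1.2 and mm10. How genes were annotated, and whether introns and strand were counted, is not given in the sources used. The matrices held 12060 control and 8086 cKO-labelled barcodes with 108987031 and 70895490 UMIs, of which 449 and 217 barcodes were removed for mitochondrial UMIs. Doublets were left in, and removing those with the highest scores is an alternative. Positions are from GENCODE M21 on GRCm38 (32158 of 32285 identifiers). Sample labels name mesenteric fat and the series title names thoracic and abdominal fat; the sample labels were followed.

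Counts of members were summed per library and scaled to CPM with exact Poisson intervals, and log2 ratios have exact conditional binomial 95% intervals. With 1 library per genotype there is no test. The adipocyte reference, lymphoid and endothelial sets were formed by marker counts, and lymphoid nuclei needed at least 3 UMIs over 2 or more of 8 T and B cell genes. Lymphoid nuclei could also hold at most 1 UMI of Flt1, Adgrl4, Cyyr1 and Ptprb together. The members and gene lists were chosen with earlier results of these data known. Named genes were, among genes with at least 50 UMIs, the 12 endothelium-enriched genes highest and lowest by the interval end nearest 0, 6 others each way, and the extremes, the most abundant and those with a clear role in each of 26 lists. Beside other barcodes they were the 20 with the largest ratio in the poorer library, and beside Vwf-high and lymphatic nuclei 10 each way. Counts were simulated for 6656 genes of this comparison as Poisson draws, without variation between nuclei or libraries. In them 93 of 100 genes changed 2-fold and 100 of 100 changed 4-fold passed 1.5-fold in the right direction. So did 281 of 6456 unchanged genes in either direction, and 95.9% of intervals held the true ratio. The intervals assume such draws, so this coverage followed from the setting and does not extend to counts that vary between nuclei. Python 3.11.15, scipy 1.17.1, scanpy 1.11.5 and leidenalg 0.10.2 were used. Some genes that the rule or the lists name are not reported here.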

Additional observations from a re-analysis of the deposited data

Results flagged for a closer look

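Of 84 genes of the lists or named by rule that were at least 1.5 times higher or lower in capillary nuclei, 5 had intervals on the other side of 0 in the Vwf-high nuclei of the same libraries. The same share over all measured genes past 1.5-fold was not computed, so the count of 5 has no background to be read against. The difference between the sets was not tested. Kdr had a ratio of -0.79 in capillary nuclei and 0.84 (0.16 to 1.51) in Vwf-high nuclei, where control nuclei had 31.3 CPM from 45 UMIs and cKO-labelled nuclei 56.1 CPM from 35 UMIs. Kcnt2, a potassium channel gene, had -0.68 in capillary nuclei and 2.86 (2.27 to 3.50) in Vwf-high nuclei, at 21.6 and 157 CPM. Tgfb2 had -1.09 and 1.31 (0.49 to 2.14), from 26 and 28 UMIs in Vwf-high nuclei. Cav2, a caveolar protein gene, had 0.67 and -0.88 (-1.64 to -0.18), at 62.0 and 33.7 CPM in Vwf-high nuclei. Pik3r1, a regulatory subunit of PI3 kinase, had 0.59 and -0.24 (-0.41 to -0.07).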

How the results depend on the processing

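Each result was recomputed under 11 alternatives listed at the start and 5 chosen after seeing the data, namely leaving out nuclei of the adipocyte reference, sub-clusters 2 and 3, or the deepest nucleus of each library, keeping sub-cluster 0 alone, and subtracting the lymphoid profile. Of 69 named genes past 1.5-fold, 63 kept their sign under each alternative that measured them. Plvap turned to 0.17 as a mean over single nuclei, and with Vwf-high nuclei added Atp2b2 turned to -0.12, Tbc1d30 to -0.024, Gucy1a1 to -0.16, Cav2 to -0.051 and Kcnt2 to 0.86. The counts of genes higher and lower (456 and 387) became 1119 and 877 with a minimum of 20 UMIs, 93 and 72 with 200, 102 and 112 after thinning, 908 and 716 with the adipocyte profile subtracted, 290 and 254 without sub-clusters 2 and 3, and 169 and 222 in sub-cluster 0, and the lower count became 761 with the lymphoid profile subtracted. TMM scaling, which lowered each ratio by 0.045, gave 379 and 450, and the lymphoid subtraction left all measured genes at a median of -0.28. The endothelium-enriched counts (14 and 67) became 30 and 110 with a minimum of 20 UMIs, 1 and 21 with 200, 28 and 36 as a mean over single nuclei, 32 and 31 with the adipocyte profile subtracted, 30 and 30 without sub-clusters 2 and 3, 24 and 29 in sub-cluster 0, and 28 and 126 with the lymphoid profile subtracted; the higher count became 9 under TMM scaling and 24 with a stricter vascular minimum (8 UMIs and 16 per 10000), and the lower count 19 after thinning. Fewer or more genes were tested under several of these, and otherwise the cause was not tested. The share of capillary nuclei in control and cKO-labelled barcodes became 1.64% and 1.54% with at least 8 vascular UMIs, 1.94% and 1.92% with Vwf at 0, 3.60% and 3.14% with no Vwf limit, and 3.09% and 2.94% of barcodes outside the adipocyte reference. At resolution 0.3 there were 4 sub-clusters in place of 7. No paired analysis was possible because each genotype has 1 library. Without that, genotype and library cannot be told apart, and genes with fewer than about 50 UMIs were not measured.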
